A study of Rattus norvegicus with 6 samples.

Results

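RNA of the heavy polysome fraction was compared between livers of rats fed a Western diet (WD) and a control diet (CD). The heavy fraction is the part of a sucrose gradient that holds mRNAs with 4 or more ribosomes, and the light fraction holds those with 3 or fewer. Of 33022 loci in the table, 10201 were compared, which carried a gene symbol, had been estimated successfully and averaged 1 FPKM or more across the 6 libraries. FPKM is the number of fragments per kilobase of transcript, scaled to the mapped fragments of a library. All rats were male obesity-prone Sprague Dawley rats that had eaten the CD before the groups were formed. The WD, rich in milk fat, sucrose and cholesterol, or the CD was then fed for 2 weeks, and rats were fasted for 16 h and refed their own diet for 1 h before the liver was taken. RNA of 3 rats was pooled per diet, so that total RNA, the light fraction and the heavy fraction were each measured in 1 library per diet, and no value has a replicate. A difference therefore compares 2 libraries, and the spread between rats is unknown.

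In polysome profiling, mRNAs are separated by the number of ribosomes they carry, and mRNAs that are being translated by many ribosomes travel far into the gradient. The amount of an mRNA in the heavy fraction depends both on how much of that mRNA the liver holds and on how many ribosomes each copy carries. In the liver, a diet rich in cholesterol is known to lower the mRNAs of sterol synthesis and, in rats, to raise Cyp7a1, the rate-limiting enzyme of bile acid synthesis. The mRNAs of ribosomal proteins begin with a C and a run of pyrimidines, the terminal oligopyrimidine (TOP) motif, through which their translation responds to mTORC1, the kinase complex the study set out to examine.

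The starts of 5 ribosomal protein mRNAs are shown because the ribosomal proteins are the group whose translation is known to respond to feeding through this motif. Capitals mark the pyrimidine run at the start annotated by RefSeq in the rat assembly GRCr8.
Rps15: CTTTTCCCagcagccgccaa
Rplp0: CTCTCgccaggcgtcctcat
Rpl39: CTTCCggcctgtcctttctc
Rpl35: CTCTCgaaccgggcggcctc
Rplp1: CCTTTCCTCagctgccgcca
They are the 5 most abundant in the heavy libraries among mRNAs of the TOP lists with such a start, at least 20 fragments and a start on a chromosome other than 18. A start of C and at least 4 further pyrimidines was found in 2.63% of all promoters in the RefSeq table, and in 198 of the 7208 compared symbols with a promoter there.

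The labelled tissue was checked by 10 hepatocyte markers. Albumin (Alb) was at 88634 FPKM in the CD heavy library and 97448 FPKM in the WD heavy library, and none of the 10 markers differed by 1.5-fold. The 14 Kupffer cell and macrophage markers summed to 236.1 FPKM in the CD heavy library and 291.8 FPKM in the WD heavy library, and to 194.9 and 254.5 FPKM in total RNA. Of these 14 mRNAs, 5 were at least 1.5-fold higher in the WD heavy library and 1 was lower, and none was at 0. The counting interval lay off 1 for 0 of the 10 with inferred fragments, and the higher ones include Tyrobp with 1 and 2 fragments, Vsig4 with 1 and 5 and Cd68 with 4 and 9. Their part in the results was not tested. In bulk RNA, fewer cells of a type and less RNA per cell cannot be told apart. Markers of sinusoidal endothelial cells summed to 156.1 and 160.3 FPKM, and those of stellate cells to 123.7 and 151.3 FPKM. Of the 10 stellate cell markers compared, however, 6 were below 0 on the log2 scale, with a median change of -0.03. At least 1.5-fold higher were 2 of them and at or below 1/1.5 were 3, and the interval lay off 1 for 0 of 7.

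Over all 10201 loci the median log2 change in the heavy fraction, WD over CD with 0.1 FPKM added to each, was -0.02 and the middle 95% of loci lay between -4.18 and 4.67. A ratio of at least 1.5 was found for 2214 loci (21.7%), and of at most 1/1.5 for 2098 (20.6%). How far a locus moved depended on its depth. The number of fragments behind a value could be inferred for 71.3% of the loci, with a median of 8 in the CD heavy library and 9 in the WD heavy library. Among loci with 1 to 9 fragments over both heavy libraries, 71.5% were past 1.5-fold in either direction, whereas among the 934 loci with at least 100 fragments 82 (8.78%) were, 26 higher and 56 lower. An exact 95% interval of the ratio, which covers counting error only, lay above 1 for 235 of 6978 loci (3.37%) and below 1 for 285 (4.08%). Among the 3326 loci with at least 20 fragments, 11.1% were at least 1.5-fold higher and 11.4% lower. Changes above 0 were found for 45.1% of all loci and below 0 for 50.4%. The share with an interval off 1 rose with depth, from 1.9% of loci with 1 to 9 fragments to 24.5% of those with at least 100, where it lay above 1 for 83 and below 1 for 146 of 934. Counts of intervals in a list of deeply sequenced mRNAs are therefore read against the latter. The other shares are read against the shares over all loci.

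**Figure D1:**
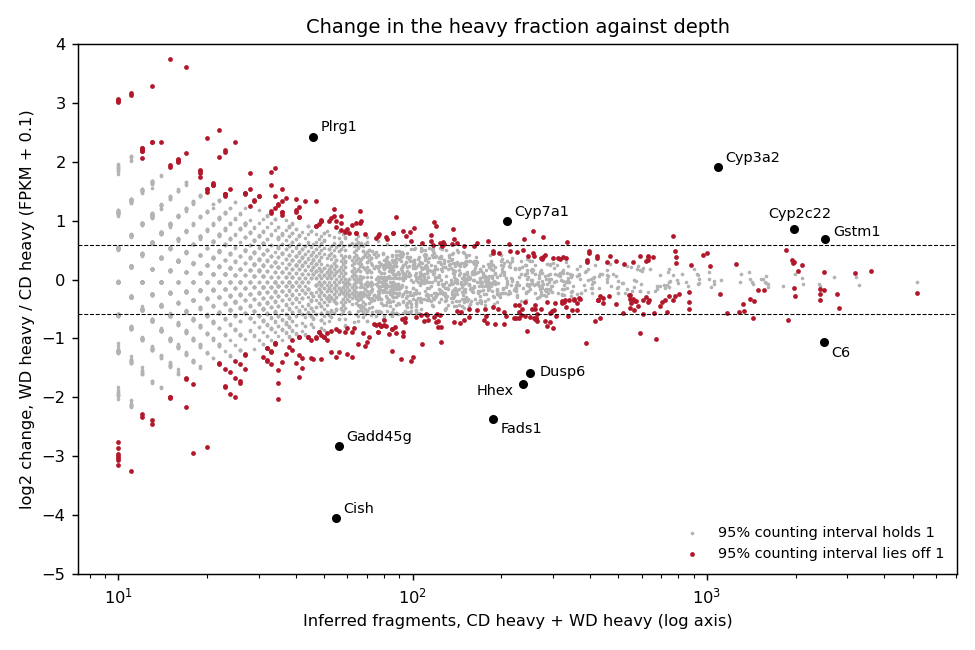
Log2 change in the heavy fraction (vertical axis, WD over CD) against the inferred fragments of both heavy libraries (horizontal log axis) for the 4662 loci with at least 10 fragments, of which 3 lie outside the vertical axis. Red points have a 95% counting interval off a ratio of 1, black points are named genes and dashed lines mark 1.5-fold; the spread narrows to the right, where Cyp3a2 and C6 stand clear of the rest.

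Sterol synthesis mRNAs were lower in the WD heavy library. Of 24 mRNAs of cholesterol synthesis compared, 11 were at or below 1/1.5 and 3 were at least 1.5-fold higher, with a median change of -0.45. Of the 11 with at least 20 fragments, 8 were lower and none was higher, and the interval lay below 1 for 6 of 20. Hmgcs1, the cytosolic synthase of an early step, was at 78.7 FPKM in the CD and 48.4 FPKM in the WD heavy library, a ratio of 0.615 (95% interval 0.479 to 0.786). Sc5d, a desaturase of a late step, was at 15 and 8.6 FPKM, a ratio of 0.57 (0.35 to 0.92). Srebf2, the transcription factor of the pathway, was at 20.7 FPKM in the CD and 10.2 FPKM in the WD heavy library, and its fragments could not be inferred. In total RNA the list moved by a median of -0.49, and Hmgcs1 had a ratio of 0.695.

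Of 20 bile acid mRNAs compared, 15 were below 0, with a median of -0.12. At least 1.5-fold higher were 2, Cyp7a1 and Nr0b2, a repressor of bile acid synthesis with 0 and 2 fragments, and none was at or below 1/1.5, and the interval lay above 1 for 2 of 15 and below 1 for 5. Cyp7a1 (Rnor_6.0 chromosome 5, 19358733 to 19368431) was at 28.4 FPKM in the CD and 56.6 FPKM in the WD heavy library, a ratio of 1.99 (1.49 to 2.7), and its light and total RNA values were also higher in the WD. Cyp27a1, the sterol hydroxylase of the alternative pathway, had a heavy ratio of 1.37 (1.21 to 1.56) and a total ratio of 0.922. Cyp8b1, which directs synthesis to cholic acid, had a ratio of 0.75 (0.63 to 0.9), and Abcb11, the export pump of bile salts, one of 0.9 (0.83 to 0.97).

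Desaturases and lipogenic mRNAs were lower in part. Fads1 (Rnor_6.0 chromosome 1, 226234073 to 226249138), the delta-5 desaturase of polyunsaturated fatty acids, was at 67.1 FPKM in the CD and 12.9 FPKM in the WD heavy library. Its ratio was 0.193 (0.127 to 0.285) and its light and total RNA values were likewise lower. Fads2, the delta-6 desaturase, had a ratio of 0.68 (0.58 to 0.79), and Acly, which makes cytosolic acetyl-CoA, one of 0.57 (0.44 to 0.72). Acss2, a cytosolic acetyl-CoA synthetase, had a ratio of 0.42 (0.22 to 0.78). Of 22 mRNAs of fatty acid and triglyceride synthesis, 6 (27.3%) were at or below 1/1.5 and 3 (13.6%) at least 1.5-fold higher, against 20.6% and 21.7% of all loci. Their median change was -0.24. The 3 that were higher were Srebf1, Mlxipl and Elovl1, and none of them had inferred fragments. Srebf1, the lipogenic transcription factor, was at 42.3 and 85 FPKM.

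Of 27 mRNAs of fatty acid oxidation and ketogenesis, 22 were below 0 on the log2 scale against 50.4% of all loci, while 2 were at or below 1/1.5 and 1 was higher. The median change was -0.28, and the interval lay below 1 for 9 of 21 and above 1 for none. Ehhadh, of peroxisomal beta-oxidation, had a ratio of 0.69 (0.61 to 0.77). Cpt1a, the carnitine transferase that admits fatty acids to mitochondria, had a ratio of 0.78 (0.66 to 0.92). Acadl, a long-chain acyl-CoA dehydrogenase, had a heavy ratio of 0.704 (0.614 to 0.807) and a total ratio of 1.06 (0.937 to 1.19). Cyp4a1, a fatty acid omega-hydroxylase, was at 448 and 211 FPKM in the heavy libraries. Fabp1, the liver fatty acid binding protein, had a ratio of 0.639 (0.574 to 0.711). In the glucose list, 25 of 32 mRNAs were below 0, 4 were at or below 1/1.5 and 3 higher, with a median of -0.13. Pklr, the liver pyruvate kinase, had a ratio of 0.66 (0.45 to 0.96) and Fbp1, a gluconeogenic phosphatase, one of 1.38 (1.05 to 1.82).

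**Figure D2:**
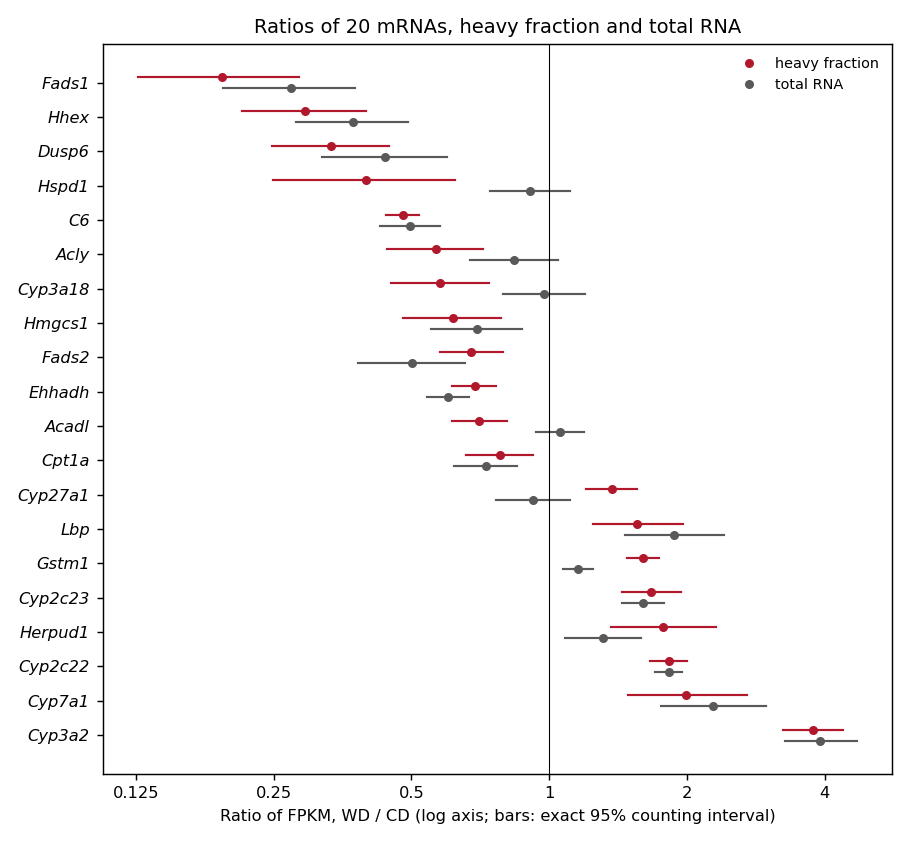
Ratio of FPKM, WD over CD (horizontal log axis), for 20 mRNAs chosen after their values were seen, in the heavy fraction (red) and total RNA (grey), 1 library per diet; bars are exact 95% counting intervals. Fads1 lies lowest at 0.193 and Cyp3a2 highest at 3.76, and the ratios of Acadl and Cyp27a1 lie on opposite sides of 1 in heavy and total RNA, with total intervals that hold 1.

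Drug-metabolizing enzymes moved both ways. Of 30 cytochrome P450 and flavin oxidase mRNAs, 5 (16.7%) were at least 1.5-fold higher and 4 (13.3%) lower. Both shares were below the 21.7% and 20.6% of all loci. The median was 0.03, and the interval lay above 1 for 5 of 22 and below 1 for 2. Cyp3a2 (Rnor_6.0 chromosome 12, 11655401 to 11733136), a steroid and drug hydroxylase, was at 515 FPKM in the CD and 1937 FPKM in the WD heavy library, a ratio of 3.76 (3.24 to 4.38). It was 3.91-fold higher in total RNA. Cyp2c22 had a ratio of 1.82 (1.66 to 2) and Cyp2c23 one of 1.67 (1.44 to 1.94), whereas Cyp3a18 had one of 0.578 (0.45 to 0.739). Rats have several near-identical Cyp3a and Cyp2c copies, among which reads can be split. Gstm1, a glutathione transferase with close paralogs, was at 1425 and 2287 FPKM, a ratio of 1.6 (1.48 to 1.74).

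The 12 lowest changes among loci with at least 20 fragments included Fads1, described above, and Cish, Gadd45g and Hhex. Cish, a feedback inhibitor of cytokine and growth hormone signalling, was at 24.1 FPKM in the CD and 1.36 FPKM in the WD heavy library, a ratio of 0.0563 (0.0113 to 0.174). Gadd45g, a stress-response gene, was at 75.7 and 10.6 FPKM, a ratio of 0.139 (0.0533 to 0.31). Hhex, a homeobox factor of liver development, was at 161 and 47.3 FPKM, a ratio of 0.293 (0.213 to 0.399). Dusp6, a phosphatase of ERK that the study names and that lies outside these 12, was at 101 and 33.6 FPKM, a ratio of 0.334 (0.248 to 0.446). All 4 were also lower in total RNA, with ratios of 0.0653, 0.171, 0.373 and 0.439, and lower in the light fraction. The other 8 of the 12 lowest, Qser1, Emc2, Amd1, Ier5, St5, Pcdh18, Stim2 and Coq3, had at most 35 fragments each. The 12 highest were led by Eif4enif1, a binding partner of eIF4E, at 3 fragments in the CD and 19 in the WD heavy library, and Plrg1, a splicing factor, at 7 and 39. Only Cyp3a2 among these 12 had more than 50 fragments.

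Secreted and endoplasmic reticulum proteins are the main products of hepatocyte polysomes. Of 41 plasma protein and apolipoprotein mRNAs, none was past 1.5-fold either way. Of 27 acute phase and complement mRNAs, C6, a component of the terminal complement complex, was at 821 FPKM in the CD and 393 FPKM in the WD heavy library, a ratio of 0.478 (0.439 to 0.52), with 0.498 in total RNA. Lbp, which binds bacterial lipopolysaccharide, had a ratio of 1.56 (1.24 to 1.96). Of 30 chaperone and unfolded protein response mRNAs, 3 (10%) were at least 1.5-fold higher and 1 (3.3%) lower, both below the shares over all loci. The interval lay above 1 for 7 of 26 and below 1 for 2. Herpud1, of endoplasmic reticulum-associated degradation, had a ratio of 1.77 (1.36 to 2.31), Ssr4, of the translocon, 2.09 (1.31 to 3.4), and Hspa5, the main luminal chaperone, 1.26 (1.15 to 1.38). Xbp1, the transcription factor of the response, had a ratio of 0.766 (0.652 to 0.899). Of 36 proteasome mRNAs, 9 (25%) were at least 1.5-fold higher, near the 21.7% of all loci, and 1 (2.8%) was lower, against 20.6%. Of the 21 with at least 20 fragments, 2 were higher and 0 lower. The median was 0.13, and the interval lay above 1 for 2 of 29.

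**Figure D3:**
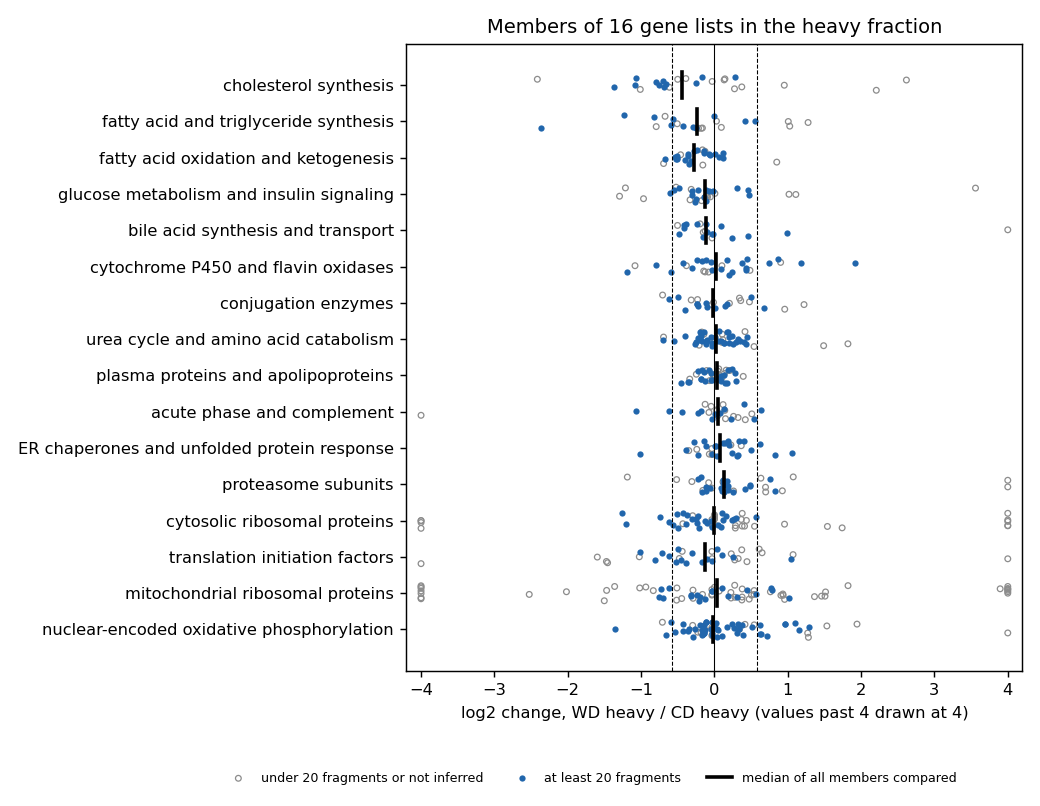
Log2 change in the heavy fraction (horizontal axis, WD over CD) of the members of 16 gene lists, 1 point per mRNA, filled where both heavy libraries held at least 20 inferred fragments together; thick bars are medians, dashed lines mark 1.5-fold and values past 4 are drawn at 4. The median of cholesterol synthesis lies lowest, at -0.45, and the plasma proteins span the least.

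Cytosolic ribosomal protein mRNAs had as many higher as lower members in the heavy fraction. Of 60 compared, 8 were at least 1.5-fold higher and 8 lower, the median change was 0 and in total RNA it was also 0, while in the light fraction it was 0.97. Over all compared loci the light median was 0.02. The light libraries differed in depth by more than the heavy ones, at 1.07 and 2.34 times the CD heavy library. A part of depth in the light value was not tested. The study reports that a set of TOP mRNAs had a lower proportion in heavy polysomes of WD livers. That proportion sets heavy against light RNA, whereas the change given here is of heavy RNA alone. Of 28 ribosomal protein mRNAs with at least 20 fragments, 4 were lower and none was higher. Rpl39 was at 464 FPKM in the CD and 194 FPKM in the WD heavy library, a ratio of 0.418 (0.227 to 0.743). Rplp0 was at 385 and 293 FPKM (ratio 0.761, 0.628 to 0.922), and Rps15 at 780 and 666 FPKM (0.854, 0.692 to 1.05). Rplp1 had a ratio of 1.49 (0.832 to 2.71) and Rpl35 one of 1.08 (0.677 to 1.74). These are the mRNAs whose starts are printed above, and their intervals overlap 1 in 3 of 5. Ribosomal protein genes have many processed pseudogenes that can share reads, so single values are uncertain. Over all compared symbols, a start of C and at least 4 pyrimidines went with a median change of -0.03 (198 loci), and other starts with -0.03 (7010 loci). At least 1.5-fold higher were 14.1% of the former and 21.4% of the latter, and lower were 20.2% and 20.3%. Of the ribosomal protein and other TOP list members with a promoter, the annotated start was of this kind for 18, with a median of 0, and of another kind for 43, with a median of -0.17, so the annotated starts do not mark most of these mRNAs. Of 34 initiation factor mRNAs, 5 (14.7%) were higher and 9 (26.5%) lower, against 21.7% and 20.6% of all loci. Of 22 mRNAs in the other TOP list, 3 (13.6%) were higher and 4 (18.2%) lower. In that list 13 were below 0, with a median of -0.20 in the heavy fraction and -0.07 in total RNA. They summed to 2233 FPKM in the CD and 1830 FPKM in the WD heavy library. In total RNA the sums were 1845 and 1869 FPKM. Eef2, the elongation factor of translocation and a member of that list, had a heavy ratio of 0.82 (0.75 to 0.9).

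Mitochondrial mRNAs were spread to both sides. Of 66 nuclear-encoded oxidative phosphorylation mRNAs, 14 (21.2%) were at least 1.5-fold higher and 4 (6.1%) lower, against 21.7% and 20.6% of all loci. Their share of higher members was thus that of all loci, and only the lower share was smaller. The median was -0.02, and the interval lay above 1 for 4 of 61 and below 1 for 3. Atp5o, of the ATP synthase stalk, had a ratio of 1.54 (1.12 to 2.14). Atp5l, another ATP synthase subunit, had one of 0.663 (0.562 to 0.782), and Cycs, cytochrome c, one of 0.39 (0.238 to 0.624). Hspd1, the mitochondrial chaperonin, had a ratio of 0.399 (0.25 to 0.622) in the heavy fraction and 0.907 (0.741 to 1.11) in total RNA. Of 74 mitochondrial ribosomal protein mRNAs, 20 (27.0%) were higher and 19 (25.7%) lower, near the shares over all loci. The 16 mRNAs that the study names as less translated were chosen on these samples. In the heavy fraction 14 of them were at or below 1/1.5 and none was higher, but 1 of the 16, Dusp6, had at least 20 fragments. Of the rest, 9 were at 0 in the WD heavy library, and the 8 of these with inferred fragments had at most 7 in the CD heavy library.

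Of 7 mRNAs compared among those the study took to qRT-PCR, also chosen on these samples, 4 were at least 1.5-fold higher in the WD heavy library. Ucp2, a mitochondrial carrier, had 1 and 9 fragments, Lipe, hormone-sensitive lipase, 2 and 8, and Lpl, lipoprotein lipase, 2 and 6. For mRNAs selected from the sequenced RNA, the study reports qRT-PCR changes in the same direction as sequencing. In separate Sprague Dawley rats, it found that refeeding moved Lipe, Lpl and Pfkfb3 into the heavy fraction less in the WD. Lipe abundance was also lower in the WD there. Those values are heavy proportions and abundances in other rats, not heavy FPKM. A list of 50 steatosis symbols was copied from the polysome column of a supplement to the study, and 46 were compared, of which 19 were at least 1.5-fold higher and 3 lower. Of 29 in its abundance column, 7 were higher and 7 lower. Both lists were chosen for being higher in the WD on these libraries, the former by its heavy to light ratio, and so neither count is independent.

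Heavy and total changes were set side by side for the 4446 loci with at least 10 fragments in each pair. The interval of the heavy ratio over the total ratio lay above 1 for 134 of them (3.01%) and below 1 for 170 (3.82%). Among the 168 loci whose heavy interval lay above 1 with at least 20 fragments in each pair, 111 were also above 0 in total RNA and 38 had a total interval above 1. Among the 243 below 1, 167 were also below 0 and 64 had a total interval below 1. The median total changes of these sets were 0.14 and -0.15, against heavy medians of 0.79 and -0.69 by which they were chosen. Of all 3145 loci with at least 20 fragments in each pair, 49.4% were above 0 in total RNA and 50.6% below. Cish, Gadd45g, Fads1, Hhex, Dusp6, C6, Cyp7a1 and Cyp3a2 had intervals of this ratio that held 1. Emc2, of an endoplasmic reticulum insertase, had a heavy to total ratio of 0.185 (0.0586 to 0.543), Hspd1 one of 0.439 (0.263 to 0.721) and Cycs one of 0.359 (0.212 to 0.594). Acadl had 0.666 (0.555 to 0.8), Cyp27a1 1.49 (1.18 to 1.87) and Gstm1 1.39 (1.24 to 1.55).

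**Figure D4:**
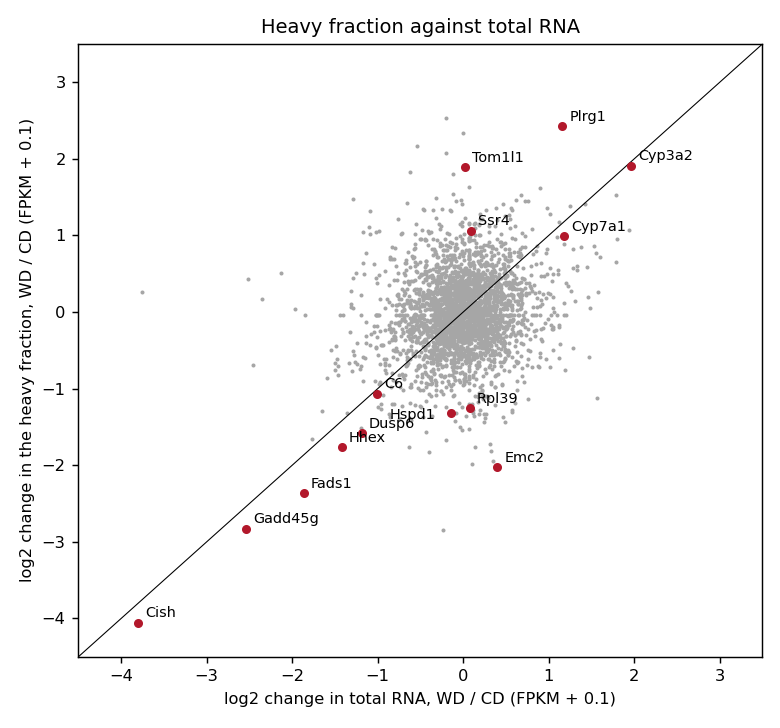
Log2 change in the heavy fraction (vertical axis) against that in total RNA (horizontal axis), WD over CD, for 3145 loci with at least 20 inferred fragments in each pair, 1 of them outside the axes; the line marks equal changes and red points are named genes. Cish, Gadd45g, Fads1, Hhex, C6 and Cyp3a2 lie near the line, and Emc2, Hspd1 and Rpl39 lie well below it.

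Among the 630 loci that averaged 100 FPKM or more in the heavy libraries and whose symbol entry occurred on no other locus, several of the extreme changes belonged to loci with 1 inferred fragment, with none inferred or with merged symbols. SNORD66 and LOC680367 were at 0 in the CD heavy library and at 1338 and 792 FPKM in the WD heavy library, each from 1 inferred fragment. SNORD56 was at 0 and 1713 FPKM, and its fragments could not be inferred. A locus that merges Rpl19 with AC135443.1 was at 16.4 and 854 FPKM, and one that merges Psmb5 with AC109100.1 at 611 and 128 FPKM. For a merged locus the value cannot be assigned to 1 gene.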

How the data were processed

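RNA of 3 rats per diet was pooled, giving 6 libraries. After depletion of ribosomal RNA, the authors used TopHat with the Rnor_6.0 build, then Cufflinks and Cuffnorm, and deposited FPKM values with confidence bounds. The sources used here describe a separate route for polysome reads, so the exact route of the heavy libraries is not certain. The deposited FPKM are not counts, and no count test was run. Symbols are the file's, and RefSeq (GRCr8) gave synonyms and mRNA starts only.

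Changes were log2((WD + 0.1)/(CD + 0.1)) of FPKM, called at a ratio of 1.5 or 1/1.5, over loci with a symbol, status OK and a mean of at least 1 FPKM. For a repeated symbol (277 loci) the locus with the highest mean was used, and 173 loci merged symbols. Fragment numbers were inferred as whole numbers that 1 step per gene and 1 factor per library explain, and were given to no merged locus. Of values with 1 to 30 fragments, 85.8% had the confidence bound typical of that number. Multiples of the inferred numbers would give the same FPKM. Intervals are exact (Clopper-Pearson, or a conditional odds ratio for heavy over total). They cover counting error only, since each group is 1 pooled library, and they treat fragments as independent. Reads from PCR lack molecular identifiers and are not independent, so the intervals may be too narrow even for counting error. Both scripts were tested on simulated data.

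Named genes were the study's named mRNAs, members of the lists, the 12 highest and 12 lowest changes with at least 20 fragments, the 8 highest and 8 lowest with at least 100 FPKM, and the 6 highest and 6 lowest heavy to total ratios with at least 10 fragments in each pair. Of these last, Ogfod1, Prickle1, Gpatch1, Ppt1, Sub1 and Msh3 were lowest, and AABR07054189.1, Pithd1, Mettl3, LOC500035, Ppp2cb and Fzr1 highest, with at most 29 heavy fragments each. Members and lists were chosen with earlier results of these data known. Some mRNAs are not reported here by name. A description of coding length was planned and not run, since no protein or transcript lengths were used here. Python 3.11.15, numpy, pandas, scipy and matplotlib were used.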

Additional observations from a re-analysis of the deposited data

Results flagged for a closer look

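An interval of the heavy to total ratio was available for 4446 loci. In 16 mRNAs the heavy and the total ratio of WD to CD lay on opposite sides of 1, each with a 95% counting interval off 1. This criterion was chosen after another had been seen to name 74 mRNAs, those past 1.5-fold in opposite directions with an interval of the heavy to total ratio off 1, and 4 of the 16 are among those 74. The other 12 are short of 1.5-fold in at least 1 kind of RNA. Each side is 1 library per diet, and no replicate shows whether the difference belongs to the diet. The log2 change in the heavy fraction was -1.13 for LOC100363800, -0.811 for Eif5, an initiation factor, -0.634 for Gdi2, -0.527 for Glo1, -0.467 for Pfdn5, -0.462 for F9, -0.393 for Rplp0, -0.338 for Cd302, -0.33 for Mut, -0.28 for Spp2, -0.23 for Apoh and -0.184 for F2, and each of these 12 was higher in total RNA of the WD. It was 0.329 for Gpx4, 0.625 for Rassf3, 0.647 for Atp6v0b and 0.783 for Fam214a, each lower in total RNA. F9, F2, Apoh and Spp2 encode proteins that the liver secretes into plasma.

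The 864 loci without a symbol, which no comparison used, held 97.2% of the FPKM sum of the CD heavy library and 96.3% of that of the WD heavy library. Their median width was 123.5 bases.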

How the results depend on the processing

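No paired analysis was possible because each group is 1 pooled library, and for the same reason no replicate could be left out. The counts of loci past the fold depended on depth and on the threshold. With a mean of at least 10 FPKM, 541 loci were higher and 523 lower in the WD heavy library, with at least 10 inferred fragments 723 and 733, and with a fold of 2 1328 and 1179. The median change of all loci was -0.034 with at least 10 inferred fragments, -0.033 with 1 FPKM or more on average in the heavy libraries and -0.039 after rescaling to the same sum. Under the alternatives the median of cholesterol synthesis lay between -0.70 and -0.37 and that of fatty acid oxidation between -0.32 and -0.26. Fatty acid and triglyceride synthesis lay between -0.36 and -0.20, and the glucose list between -0.23 and -0.12. Nuclear-encoded oxidative phosphorylation lay between -0.042 and -0.0019. The median of ribosomal proteins, 0 in the main setting, lay between -0.13 and 0.02, on both sides of 0. Leaving out loci that merge symbols was chosen after seeing the data. Medians of short lists reversed, for cholangiocyte markers to -0.33 with at least 10 FPKM and also -0.33 with at least 10 fragments, where 1 of 2 members was left, and for the qRT-PCR mRNAs to -0.0059 with at least 10 FPKM. Some longer lists with medians near 0 also changed sign. Mitochondrial ribosomal proteins lay between -0.13 and 0.05, and cytochrome P450 and flavin oxidases between -0.03 and 0.13. Plasma proteins and apolipoproteins lay between -0.04 and 0.05. The median of the mRNAs named as less translated, -4.72, was -1.93 with a pseudocount of 1 FPKM, -7.996 with 0.01 FPKM and -1.58 with at least 10 fragments. Of loci with 20 to 49 fragments, 33.4% were past 1.5-fold but 7.33% had a counting interval off 1, so depth limits single genes. The spread between rats was not measured.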

Other observations

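Amino acid catabolism was nearly level in the heavy fraction. Of 48 urea cycle and amino acid catabolism mRNAs, 2 were at least 1.5-fold higher in the WD and 2 lower, with a median change of 0.03. Glud1, glutamate dehydrogenase, had a ratio of 0.682 (95% counting interval 0.609 to 0.763) and Gpt, alanine aminotransferase, 0.61 (0.41 to 0.91), while Tat, tyrosine aminotransferase, had 1.34 (1.18 to 1.53) and Oat, ornithine aminotransferase, 1.33 (1.09 to 1.62). Of 27 immediate-early and circadian mRNAs, 3 (11.1%) were higher and 7 (25.9%) lower, against 21.7% and 20.6% of all loci. Dusp1 had a ratio of 0.53 (0.33 to 0.84) and Jun 0.61 (0.39 to 0.93). Of 19 integrated stress response mRNAs, 7 (36.8%) were higher and 3 (15.8%) lower. Phgdh, of serine synthesis, had 7 and 21 fragments, and Slc3a2, an amino acid transporter chain, a ratio of 1.62 (1.24 to 2.12). Ppp1r15b, which directs dephosphorylation of eIF2, had a ratio of 0.61 (0.5 to 0.75).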
